A study of Mus musculus with 44 samples.

Results

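The genes described here encode the proteins of the cytosolic ribosome, together with their paralogues, of which Rpl39l is set against the canonical genes. They were taken as all probe sets with a single platform gene symbol that starts with Rpl, Rps or Rplp and a number, leaving out the Rps6k kinases. This gave 48 probe sets of 12422 tested, and 34 genes of the 8251 that the platform names on a probe set of their own: 43 probe sets of 30 canonical genes, 1 of Rpl39l, 1 of Rpl7l1, 1 of Rps27l and 2 of Rps4l. A further 39 probe sets that the platform annotation assigns to several genes, including a ribosomal protein gene, lie outside this choice and were not analysed here.

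A ribosome is built from a small subunit, whose proteins carry the prefix Rps, and a large subunit, whose proteins carry the prefix Rpl, each assembled on ribosomal RNA in the nucleolus before export. Canonical ribosomal protein genes are transcribed strongly in every growing cell, from GC-rich promoters without a strict TATA box, and their mRNAs start with a run of pyrimidines (the TOP sequence) through which mTOR signalling controls their translation. Rpl39 lies on the X chromosome and encodes one of the smallest proteins of the large subunit, at the exit tunnel for the growing peptide; Rpl39l encodes a closely related protein from an autosome and is best known from male germ cells.

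Expression was measured on 44 Affymetrix MG-U74Av2 arrays, 1 per sample, hybridised with biotin-labelled total RNA from clone cgr8.8 of CGR8, a line of mouse embryonic stem (ES) cells. The groups were wild-type cells (4 arrays), cells with Hex targeted to the Rosa26 locus before recombination (4) and after it (4), and cells with the fusion HexERTVP2 targeted to Rosa26 in clone 1 and clone 2, each unrecombined or recombined and each with or without 4-OHT (4-hydroxytamoxifen). Hex, a homeodomain protein encoded by Hhex that binds DNA and regulates transcription, was set by the study beside β-catenin in early axis formation. Clone 1 had 5 unrecombined arrays without 4-OHT, 3 with it, 4 recombined arrays without it and 4 with it; each state of clone 2 had 3 arrays. In 4 further arrays the title's words and its code named different clones or treatments, and they entered no comparison, which left 40 arrays in 11 groups. Rosa26 is active in most mouse cells; the labels do not describe the inserted cassette, the dose or length of 4-OHT treatment, or whether the arrays within a group stem from different cultures. The p-values therefore reflect array-to-array spread, which may be technical. Each HexERTVP2 result rests on 2 clones, and the Hex groups carry no clone number.

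In the unrecombined Hex group, array 2 differed from all others before any comparison. Its mean correlation with the other arrays was 0.869, and the SD of its log2 values was 1.60, against 1.93, 1.95 and 1.90 in the other arrays of its group. Of 13 ES cell markers measured, 12 had a mean above 6.77, the median log2 level of all probe sets, the exception being Esrrb at 6.19. Of the markers of other cells, 3 of 10 for fibroblasts (Col1a2, Col1a1 and Thy1), 4 of 9 for primitive endoderm and 1 of 10 for male germ cells (Tnp1) lay above that median. The Hhex probe set read between 6.08 and 6.23 in wild-type cells and between 6.11 and 6.46 in recombined Hex cells, ranges that overlap, so it gave no check of the Hex labels; whether its probes lie within the inserted Hex is not given in the sources used here. All levels below are log2 of the deposited intensity, differences are on the same scale, and levels of different genes are not compared as amounts of RNA, since each probe set has its own affinity. In RNA from whole cultures, fewer cells with a transcript and less of it per cell cannot be told apart.

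The promoters of Rpl39l, Rpl39 and, as a canonical gene with a motif close to its start, Rps7 are shown because the results below turn on the paralogue and its canonical partner. The sequences are the 160 bases before each RefSeq start, 5′ to 3′ on the gene's strand, build GRCm38.p6, with each CCGGAAG (or its reverse complement CTTCCGG) in capitals. These letters are the core of sites bound by ETS factors, a family that often occupies ribosomal protein promoters. The windows are chr16:10170068-10170227 on the + strand, chrX:37085223-37085382 on the - strand and chr12:28635954-28636113 on the - strand.
Rpl39l: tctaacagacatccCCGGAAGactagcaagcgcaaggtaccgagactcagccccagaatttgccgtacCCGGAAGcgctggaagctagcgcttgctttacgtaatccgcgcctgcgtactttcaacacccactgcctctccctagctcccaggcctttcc
Rpl39: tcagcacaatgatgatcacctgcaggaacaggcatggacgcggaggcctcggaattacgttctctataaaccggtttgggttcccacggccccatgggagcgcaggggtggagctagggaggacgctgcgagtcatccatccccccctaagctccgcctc
Rps7: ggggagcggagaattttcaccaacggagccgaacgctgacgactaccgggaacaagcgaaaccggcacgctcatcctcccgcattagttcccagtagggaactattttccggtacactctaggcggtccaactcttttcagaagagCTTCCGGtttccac
The Rpl39l window holds the motif 2 times, starting 146 and 92 bases before the start, the Rps7 window 1 time, starting 14 bases before it, and the Rpl39 window 0 times. Over the full 300 bases held for each promoter, which reach 50 bases past the start, Rpl39 also has 1 match. RefSeq promoters were held for 27 of the 34 genes; those not held were Rpl32, Rpl7, Rpl8, Rps14, Rps20, Rps29 and Rps4l. Among the 36 promoters of these 27 genes, 11 (30.6%) held CCGGAAG on either strand, against 8.86% of all 32851 promoters of the same length, and TATAAA on either strand was in 11.1% against 13.6%. The median number of CpG pairs was 22 in the 36 and 7 in all promoters. CCGGAAG itself holds a CpG, and its share was not compared at matched CpG content. A start at C followed by an unbroken run of pyrimidines, as in TOP mRNAs, was found in 5 of the 36 (13.9%) against 2.51% of all. The Rpl39 promoter holds TATAAA, visible in its printed window as tataaa, and the Rpl39l promoter has neither TATAAA nor such a start; both have 17 CpG pairs. A match is a description of these letters and shows no binding.

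The probe sets fell into a bright and a dim set. Means over the 40 arrays ran from 3.49 for a probe set of Rpl38, a large-subunit protein, to 14.03 for Rpl41, the smallest ribosomal protein, with a gap between 8.67 (Rps27) and 10.86 (Rps19). Above the gap lay 22 probe sets of 20 genes, which are called bright here, and 591 of all probe sets reached a mean of 10. Below it lay 26, called dim. The bright set holds the small-subunit genes Rps28 (13.55), Rps24 (13.37), Rps7 (13.04), Rps18 (13.00), Rps3 (13.00) and Rps3a1 (12.96), and the large-subunit genes Rpl19 (12.98), Rplp0 (12.84), Rpl6 (12.84) and Rpl8 (12.83); Rplp0 is the core of the ribosomal stalk.

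**Figure D1:**
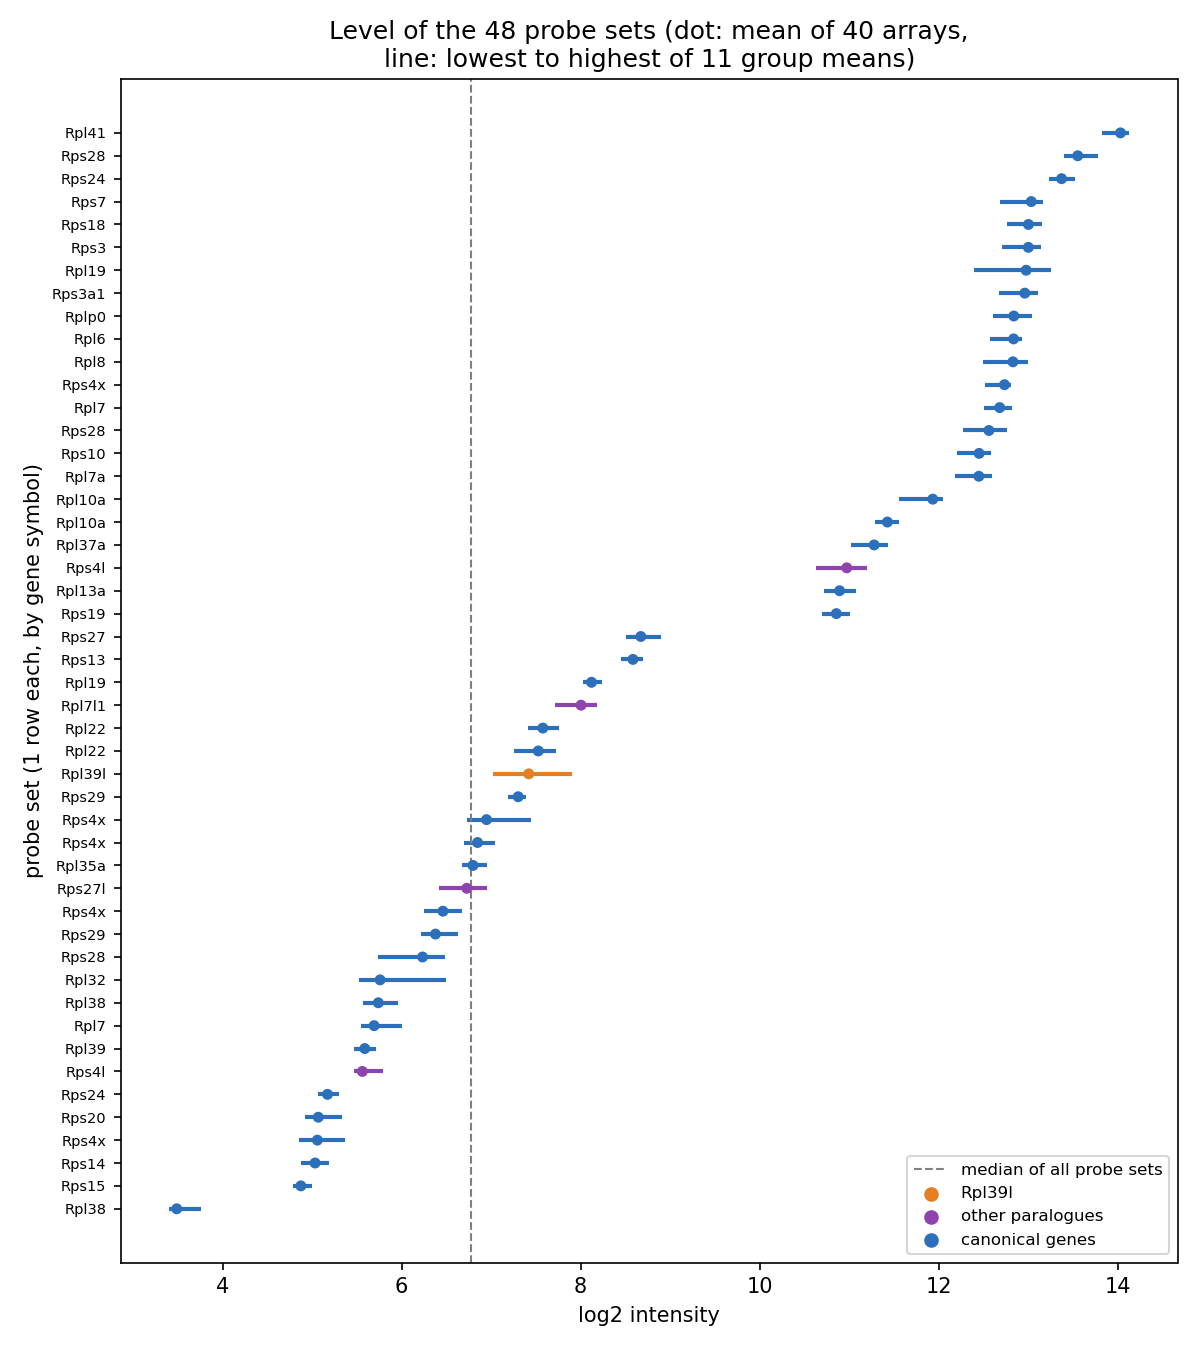
Each of the 48 probe sets has 1 row, with its mean log2 intensity over 40 arrays as a dot and the lowest to highest of the 11 group means as a line; the dashed line is the median of all probe sets. The canonical genes spread over both sides of the gap between 8.67 and 10.86, and the Rpl39l line is among the longest.

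Probe sets of the same gene often lay on opposite sides of that gap. Rps24 read 13.37 on one probe set and 5.17 on another, Rps28 between 6.23 and 13.55 on 3, Rps4x between 5.06 and 12.74 on 5, Rpl7 5.69 and 12.68, and Rpl19 8.12 and 12.98. Of the 10 genes with more than 1 probe set, Rpl22 (7.53 and 7.58) and Rpl10a (11.43 and 11.94) had probe sets that read nearly alike. Of the 26 dim probe sets 9 carry an Affymetrix suffix letter (8 r and 1 i), which marks a relaxed or incomplete choice of probes, and of the 22 bright ones 6 do (3 f, 2 s and 1 r); f and s mark probes shared within a family or between transcripts. A dim reading may therefore be a property of the probe set, and it was not taken as a low level of the transcript. Whether this holds for each dim probe set was not tested, and 17 of the 26 carry no suffix letter. The canonical partner of Rpl39l was also dim: the Rpl39 probe set read 5.59, under the median of all probe sets, while Rpl39l read 7.42. Because ribosomal protein genes have many processed copies in the mouse genome, values of single probe sets may include related transcripts.

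Rpl39l was high in every unrecombined group and low in wild-type and recombined cells. In wild-type cells the 4 arrays read 7.06, 7.15, 6.99 and 6.90 (7.03 ± 0.11, SD, n = 4). In unrecombined Hex cells they read 7.94, 7.71, 8.01 and 7.98 (7.91 ± 0.14), and in recombined Hex cells 7.37, 7.23, 6.79 and 7.12 (7.13 ± 0.25). All 4 unrecombined arrays lay above every recombined and every wild-type array, and the recombined and wild-type arrays overlapped.

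In the Hex cells Rpl39l was 1.72-fold lower after recombination: the log2 difference was -0.78 ± 0.11 (SE), with adjusted p = 1.15e-05 in limma over all probe sets. It was the 26th largest fall of 12422. Against wild type it was 1.84-fold higher in unrecombined Hex cells (0.88 ± 0.11, limma adjusted p = 1.12e-06), the 11th largest rise, and in recombined Hex cells the difference was 0.10 ± 0.11 (95% interval -0.11 to 0.32, limma adjusted p = 0.745). These comparisons share arrays, so they are not independent. Without array 2 the first difference was -0.85 (limma adjusted p = 3.08e-06) and the second 0.95 (3.2e-07). When only the 8 Hex arrays were fitted, the fall kept its size and lost its call (limma adjusted p = 0.229).

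The same order held in the HexERTVP2 cells. In clone 1 without 4-OHT the unrecombined arrays read 7.51, 7.44, 7.68, 7.54 and 7.56 (7.55 ± 0.09, n = 5) and the recombined arrays 7.31, 6.95, 7.17 and 7.01 (7.11 ± 0.16, n = 4). In clone 2 without 4-OHT they read 7.75, 7.87 and 7.84 (7.82 ± 0.06, n = 3) and 7.39, 7.28 and 7.32 (7.33 ± 0.06, n = 3). In each clone every unrecombined array lay above every recombined one. Averaged over the clones, recombined cells were 1.38-fold lower (-0.47 ± 0.08, limma adjusted p = 0.0014). Within clone 1 the difference was -0.44 ± 0.10 (limma adjusted p = 0.0233, or 0.0533 with the replicate number as a block and 0.0706 when only its groups were fitted; 0.547% of all probe sets called). This call was lost without any 1 of 5 arrays: unrecombined array 3 (-0.41, limma adjusted p = 0.085) or 5 (-0.44, 0.061), and recombined array 2 (-0.39, 0.13), 3 (-0.46, 0.0569) or 4 (-0.41, 0.124). Within clone 2 the difference was -0.49 ± 0.12, which missed the threshold (limma adjusted p = 0.0746, with 0.322% of all called). Over 7 runs that each left out 1 array, it stayed uncalled in 6 (limma adjusted p up to 0.346). The run that passed left out array 2 of unrecombined Hex (limma adjusted p = 0.0149), which bears on this fit only through the shared spread. Over 10 other processing settings the clone 2 difference stayed uncalled in 6 and passed in the rest (limma adjusted p from 0.0082 to 0.104). Relative to wild type, unrecombined HexERTVP2 cells were 1.58-fold higher (0.66 ± 0.09, limma adjusted p = 3.55e-05, the 6th largest rise of 12422), and recombined cells differed by 0.19 ± 0.09 (limma adjusted p = 0.976; 0.322% of all called).

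With 4-OHT the levels stayed near those without it. Clone 1 read 7.61, 7.37 and 7.62 before recombination and 7.33, 7.35, 7.12 and 6.96 after it, without overlap. Clone 2 read 7.82, 7.64 and 7.81 before and 7.64, 7.36 and 7.30 after it, and here the highest recombined array (7.645) lay just above the lowest unrecombined one (7.636). Averaged over clones the difference between the states with 4-OHT was -0.33 ± 0.08 (limma adjusted p = 0.15), and 0.185% of all probe sets were called. Over 14 runs that each left out 1 array, it stayed uncalled in 13 (limma adjusted p up to 0.54). It passed without array 2 of unrecombined Hex (limma adjusted p = 0.042), an array that bears on this fit only through the shared spread. Over 10 other processing settings the averaged difference stayed uncalled in 8 and passed in the rest (limma adjusted p from 0.00636 to 0.271). Within clone 1 this difference was -0.34 ± 0.11 (limma adjusted p = 0.624, with 0.209% of all called) and within clone 2 -0.32 ± 0.12 (limma adjusted p = 1, with 0.105%). In clone 1 it stayed uncalled in 9 of 10 other processing settings (lowest limma adjusted p = 0.0246). The effect of 4-OHT itself was 0.10 ± 0.08 in recombined cells (95% interval -0.07 to 0.26) and -0.04 ± 0.08 in unrecombined cells (-0.20 to 0.13), and their difference was 0.13 ± 0.11 (-0.10 to 0.37); none of these passed (limma adjusted p = 1 for each).

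Over all 5 pairs of recombined and unrecombined groups, 4 did not overlap. The 18 unrecombined arrays ran from 7.37 to 8.01 with a median of 7.69, the 18 recombined arrays from 6.79 to 7.64 with a median of 7.29, and 2 of the latter reached the lowest unrecombined array. Ordered by mean, the groups were wild type (7.03), recombined clone 1 (7.11), recombined Hex (7.13), recombined clone 1 with 4-OHT (7.19), recombined clone 2 (7.33) and the same with 4-OHT (7.44), then unrecombined clone 1 with 4-OHT (7.53) and without (7.55), unrecombined clone 2 with 4-OHT (7.76) and without (7.82), and unrecombined Hex (7.91). The arrays of each neighbouring pair in this order overlapped, so the order is graded and neighbours do not separate. Clone 2 was above clone 1 by 0.24 ± 0.06 over the 4 states (limma adjusted p = 0.0217), a call lost when any of 3 single arrays was left out: array 2 of unrecombined clone 1 with 4-OHT (0.22, limma adjusted p = 0.0643), of recombined clone 2 (0.23, 0.0511) and of recombined clone 2 with 4-OHT (0.21, 0.0657). The fall after recombination was 0.32 larger in Hex cells than in HexERTVP2 cells, a difference that did not pass (-0.32 ± 0.13, limma adjusted p = 0.253; 1.94% of all called).

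**Figure D2:**
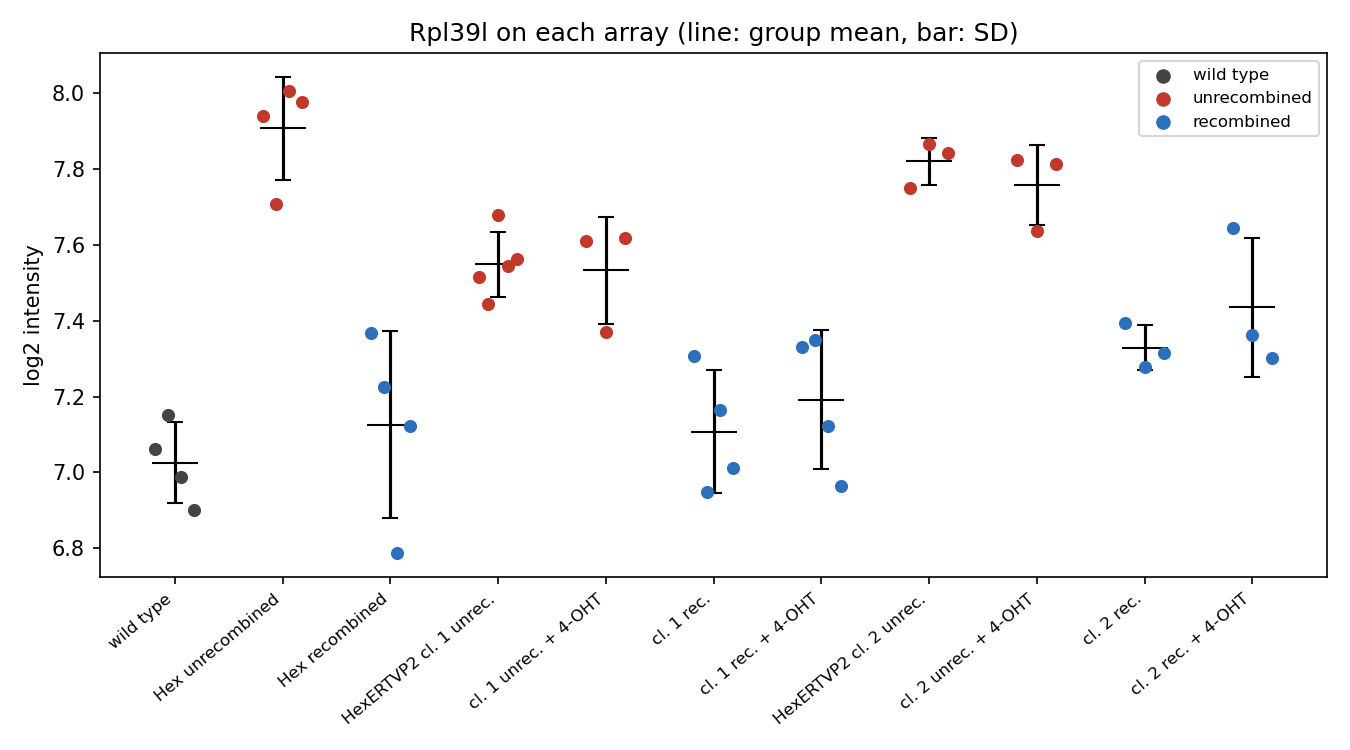
Each point is the log2 intensity of Rpl39l on 1 array, by group, with the group mean as a line and the SD as a bar (n = 3 to 5). The unrecombined groups (red) sit at means of 7.53 to 7.91, above the recombined groups (blue, 7.11 to 7.44) and wild type (7.03).

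Few other ribosomal protein probe sets passed the threshold. After recombination of Hex, 0 of the 48 rose and 1, Rpl39l, fell, where 3.37% of all 12422 probe sets were called in either direction and 0.781% fell. In unrecombined Hex cells against wild type, 1 rose (Rpl39l) and 1 fell (Rpl19), where 4.82% of all were called, 0.757% higher and 4.07% lower. In recombined Hex cells against wild type 0 of 48 passed in limma, where 0.266% of all were called. At an unadjusted limma p under 0.05 there were 5 of the 48, against 1024 of all 12422. In HexERTVP2 cells, 1 of 48 (Rpl39l) rose in unrecombined cells against wild type (1.46% of all called, 0.322% higher), 1 (Rpl39l) fell after recombination (0.467% called, 0.0805% lower), and 1 (Rpl39l) was higher in clone 2 (1.22% called, 0.459% higher). For 4-OHT in recombined cells (0.0322% of all called), 4-OHT in unrecombined cells (0%) and their interaction (0.0161%), 0 of the 48 passed in limma and 0 had an unadjusted p under 0.05. Each count of 1 is a share of 2.08% of the 48 probe sets and the smallest count above 0, so the counts alone say little. Rpl39l was the gene called in each of these 5 comparisons, which are not independent, since each shares arrays with another.

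**Figure D3:**
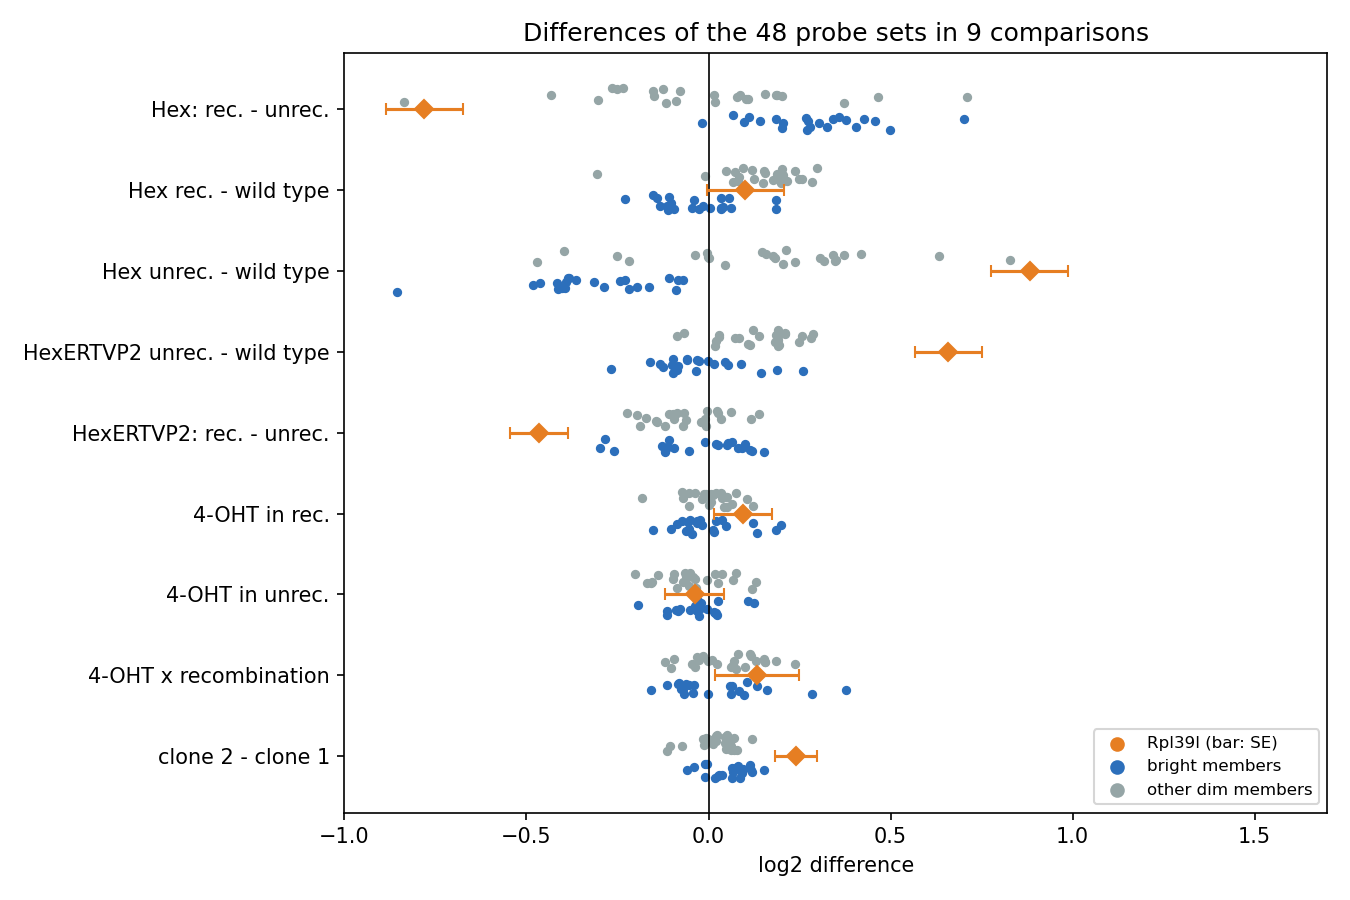
Log2 differences of the 48 probe sets in 9 comparisons; Rpl39l is orange with its SE, bright probe sets are blue and other dim ones grey. Rpl39l stands at -0.78 and 0.88 in the Hex comparisons and at 0.66 and -0.47 in the HexERTVP2 comparisons, while the blue points move as a block in the rows that use unrecombined Hex.

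The Rpl39 probe set passed in none of the 9 comparisons. This dim probe set may report its transcript poorly, so the missing calls do not show that Rpl39 was unchanged. It read 5.48, 5.40, 5.43 and 5.57 in wild-type cells, 5.47, 5.99, 5.59 and 5.56 in unrecombined Hex cells and 5.60, 5.62, 5.87 and 5.58 in recombined Hex cells. The unrecombined arrays overlapped both other groups, and every recombined array lay above every wild-type one (0.20 ± 0.09, limma adjusted p = 0.563). Its difference after recombination of Hex was 0.01 ± 0.09 (limma adjusted p = 0.952); it was -0.04 when each array was centred on its median. In HexERTVP2 cells its values ran the same way as those of Rpl39l without passing. Clone 2 without 4-OHT read 5.70 to 5.73 before recombination and 5.46 to 5.63 after it, without overlap, and clone 1 read 5.51 to 5.73 and 5.41 to 5.61, with overlap. Over both clones the difference after recombination was -0.14 ± 0.07 (limma adjusted p = 0.424), and unrecombined cells differed from wild type by 0.19 ± 0.08 (limma adjusted p = 0.217; 0.0484 without array 2 of unrecombined Hex). Subtracting Rpl39 from Rpl39l within each array gave 2.26 ± 0.36 in unrecombined Hex, 1.46 ± 0.37 in recombined Hex and 1.56 ± 0.17 in wild-type cells (SD, n = 4 each). The recombined group was lower than the unrecombined one by 0.80, with exact two-sided permutation p = 0.0571 (0.0856 adjusted over 3 comparisons; the smallest p that 4 against 4 arrays allow is 0.0286), so it did not pass. The unrecombined group was above wild type by 0.70 (exact permutation p = 0.0571, 0.0856 adjusted), and the recombined group was below wild type by a size of 0.10 (exact permutation p = 0.771). Without array 2 the first 2 differences were -0.98 and 0.88, with exact permutation p = 0.0286 each. With the median of the canonical probe sets in place of Rpl39, the 3 differences were -0.87, 0.69 and -0.18.

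Rpl39l also spread more between groups than the other ribosomal protein probe sets. The SD of its 11 group means was 0.31, at percentile 98.3 of all probe sets, and 0.32 (percentile 98.8) without array 2. The median over the 48 was 0.12, against 0.10 over all probe sets. Without array 2 the next highest of the 48 was 0.20, for the bright Rps4l probe set, and the lowest was 0.05, for the bright Rps4x probe set. The spread of Rpl39l within groups was 0.15, under the median of 0.24 over the 48.

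The bright probe sets moved as a block, and that block followed array 2. On this array all 22 were lowest of the 4 unrecombined Hex arrays: their median was 11.3, against 12.9 on each of the other 3 arrays and 12.5 to 13.0 across the other groups. Rps7, a small-subunit protein, read 13.07, 11.32, 13.14 and 13.22 in unrecombined Hex, 12.98, 13.09, 13.16 and 13.13 in wild-type, and 13.07, 13.39, 12.87 and 13.26 in recombined Hex cells. Rplp0 read 13.05, 11.43, 13.01 and 12.95 in unrecombined Hex, 12.66, 12.78, 13.03 and 12.76 in wild-type, and 12.72, 13.04, 12.42 and 13.06 in recombined Hex cells. Without the second value of the unrecombined group, each gene's 3 groups overlapped.

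**Figure D4:**
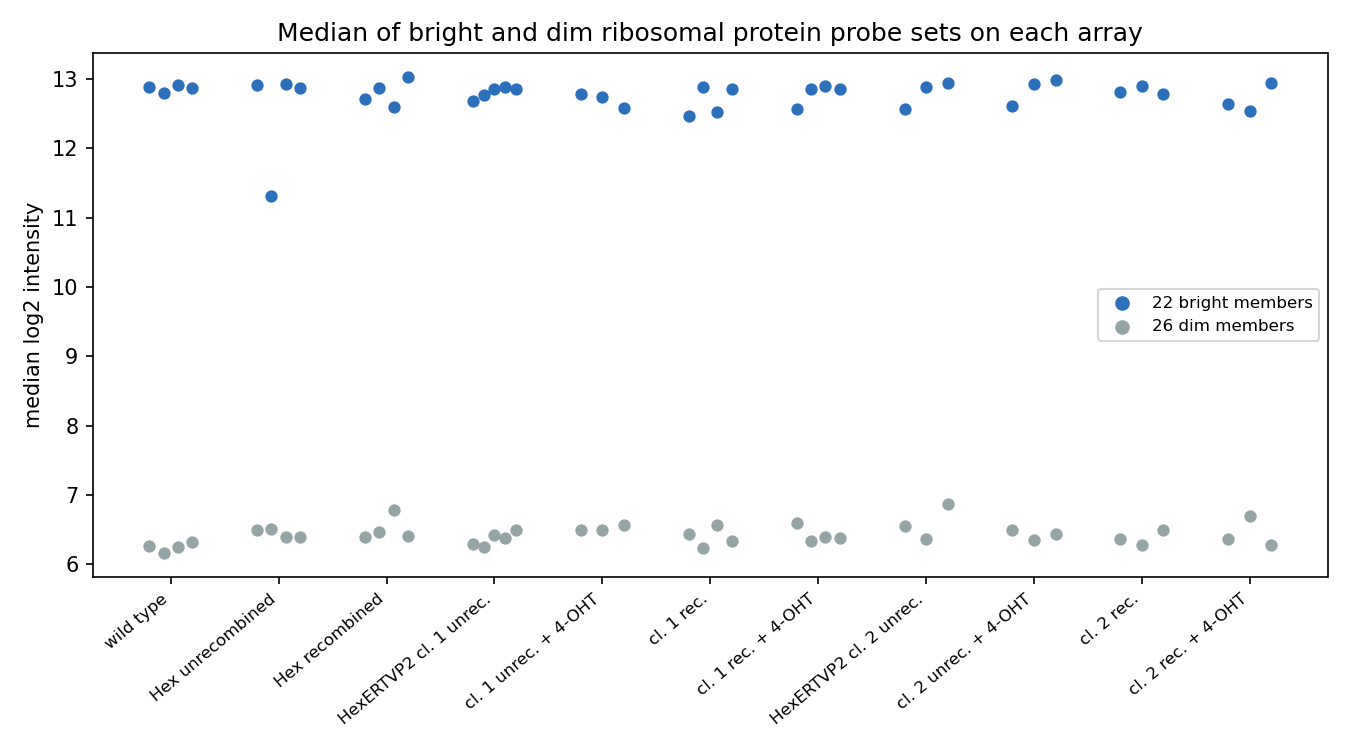
Median log2 intensity of the 22 bright (blue) and 26 dim (grey) ribosomal protein probe sets on each of 40 arrays, by group. The second unrecombined Hex array stands at 11.3 for the bright set; its dim median of 6.51 is within the range of the other arrays.

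With array 2, 1 of the 22 bright probe sets was lower after recombination of Hex (median difference 0.28, against 0.17 over all 591 probe sets at that level); without it 17 of 22 were lower (median -0.09). In unrecombined Hex against wild type, all 22 were lower with it (median -0.34, against -0.30 over the 591) and 6 of 22 without it (median 0.05). The share of the 591 that were lower was not counted. In the other comparisons with wild type the bright median was -0.03 for recombined Hex and -0.05 for unrecombined HexERTVP2. Over the 591 these medians were -0.12 and -0.09. On array 2 the β-actin 3′ probe set exceeded the 5′ one by 2.24 on the log2 scale, against 1.14 to 1.30 on the other arrays of its group; a higher value is a sign of RNA broken or copied short. Between the groups this ratio differed by -0.34 after recombination of Hex (-0.09 without array 2), 0.28 for unrecombined Hex against wild type (0.03), 0.44 after recombination of HexERTVP2 and -0.26 for unrecombined HexERTVP2 against wild type; its part in the results was not tested beyond the fits with the ratio as a covariate, in which Rpl39l kept its calls in all 4 comparisons.

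Rpl19, a large-subunit protein, was the bright gene that passed. It read 12.87, 10.83, 12.94 and 12.95 in unrecombined Hex, 13.18, 13.31, 13.22 and 13.30 in wild-type and 12.94, 13.11, 13.17 and 13.18 in recombined Hex cells. All 4 unrecombined arrays lay under all wild-type ones, and the fitted difference was -0.85 ± 0.26 (limma adjusted p = 0.05, just under the threshold). Without array 2 it was -0.33 ± 0.14 (limma adjusted p = 0.277). The dim Rpl19 probe set read between 7.97 and 8.09 in unrecombined Hex cells, within the wild-type arrays' range of 7.94 to 8.13. Rpl32, another large-subunit gene, had the difference of largest size among the 48 after recombination of Hex, and it did not pass (-0.84 ± 0.46, limma adjusted p = 0.371), from array values of 5.72, 9.06, 5.22 and 5.98 before it; without array 2 the difference was 0.02.

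Over residuals from the group means, pairs of bright probe sets correlated with a median r of 0.84 over 40 arrays, and 0.46 over 39 arrays without array 2. All 591 probe sets at that level gave 0.56 and 0.10, the dim ribosomal protein probe sets 0.15 and 0.17, and all probe sets 0.01 and 0.02. Rpl39l against the bright probe sets gave a median r of 0.20, and -0.09 without array 2. These points share array, labelling and normalisation, and some probe sets share sequence.

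Among the other paralogues, Rpl7l1, a nucleolar relative of Rpl7 with a role in ribosome assembly, read 8.05, 8.05, 8.04 and 7.96 in wild-type, 8.21, 6.74, 8.17 and 8.11 in unrecombined Hex and 7.92, 7.90, 7.30 and 7.75 in recombined Hex cells. Apart from the second unrecombined array, every unrecombined array lay above every recombined one. Its difference after recombination was -0.09 ± 0.18 (limma adjusted p = 0.843) with array 2 and -0.44 ± 0.11 (limma adjusted p = 0.00986) without it. In recombined Hex against wild type it was lower without overlap (-0.31 ± 0.18, limma adjusted p = 0.643), and recombination of HexERTVP2 gave 0.14 ± 0.14 (limma adjusted p = 0.793). Rps27l, a p53-responsive relative of Rps27, read 6.75, 5.74, 6.80 and 6.38 in unrecombined and 6.81, 7.08, 6.91 and 6.37 in recombined Hex cells (0.37 ± 0.19, limma adjusted p = 0.33). The 2 probe sets of Rps4l, a relative of the X-linked Rps4x, differed in level (5.56 and 10.97); their differences after recombination of Hex were -0.15 ± 0.14 (limma adjusted p = 0.618) and 0.27 ± 0.38 (0.764), and both changed sign without array 2 (0.10 and -0.29).

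The dim probe sets sat slightly lower in wild-type cells than elsewhere. In each of the 10 other groups, between 19 and 24 of the 26 were above wild type, with medians from 0.06 to 0.26, against 0.02 to 0.08 over all probe sets under a mean of 10. These groups share the same 4 wild-type arrays. No single canonical gene among them passed in any of the 9 comparisons. Rps27, a small-subunit protein, read 8.43, 8.44, 8.74 and 8.42 in wild-type cells and was higher by 0.29 ± 0.09 in unrecombined HexERTVP2 cells (limma adjusted p = 0.115). Without array 2, which enters that comparison only through the shared spread, Rps27 (0.29, limma adjusted p = 0.0406), Rps13 (0.19, 0.0495) and Rpl39 (0.19, 0.0484) passed there with Rpl39l, where 8.13% of all probe sets were then called.

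Genes that make ribosomes or control their output were counted beside the shares over all probe sets, which after recombination of Hex were 3.37% called in either direction with array 2 and 6.26% without it; the counts below are too small to set the lists apart from these shares. Of 49 ribosome biogenesis factors, 0 rose and 1 fell after recombination of Hex: Wdr12, a part of the PeBoW complex that matures large-subunit RNA (-0.58 ± 0.12, limma adjusted p = 0.00235). It was also higher in unrecombined Hex cells than in wild type (0.54 ± 0.12, limma adjusted p = 0.00398), the direction of Rpl39l in both, and both calls held without array 2 (-0.39 and 0.35). Over 9 other processing settings each call held in 8. The highest limma adjusted p was 0.732 after recombination and 0.545 against wild type. The biogenesis list's median difference after recombination was 0.10 with array 2 and -0.21 without it, against 0.01 and 0.04 over all probe sets. Of 18 genes for RNA polymerase I and its factors 0 passed in limma with array 2 (0 at an unadjusted p under 0.05; median 0.05), and 2 fell without it (median -0.24). Ubtf, which holds ribosomal DNA in an open state, differed by 0.38 ± 0.25 (limma adjusted p = 0.466).

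Of 31 translation factors and other TOP genes, 0 passed in limma after recombination of Hex (3 at an unadjusted p under 0.05; median 0.12), and 2 fell without array 2 (median -0.16); Eef2, the factor that moves the ribosome along the mRNA, differed by 0.58 ± 0.45 (limma adjusted p = 0.533). In HexERTVP2 cells 1 of the 31 rose after recombination, Eif2s2, a subunit of the factor that brings the initiator tRNA (0.55 ± 0.12, limma adjusted p = 0.024). Of 20 genes of Myc and mTOR growth control 1 fell after recombination of Hex: Eif4ebp2, a repressor of cap-dependent translation (-0.48 ± 0.08, limma adjusted p = 0.00036), which was higher in unrecombined Hex cells than in wild type (0.38 ± 0.08, limma adjusted p = 0.00479). In that comparison, where 4.82% of all probe sets were called, 1 gene of the list was lower: Ddit4, an inhibitor of mTOR signalling (-0.61 ± 0.15, limma adjusted p = 0.0139; -0.33 and 0.0579 without array 2). Of 61 mitochondrial ribosomal proteins, made by a separate gene family, 2 rose after recombination of Hex. These were Mrpl23 (0.87 ± 0.17, limma adjusted p = 0.00178) and Mrpl55 (0.43 ± 0.11, limma adjusted p = 0.0162). Both calls held without array 2 (0.54 and 0.36), where 2 others fell. The median difference of this list changed sign with array 2. It was 0.13 with that array (42 of 61 higher) and -0.19 without it (17 of 61 higher), against 0.01 and 0.04 over all probe sets. In unrecombined Hex against wild type 3 of the 61 were lower: Mrpl45 (-0.92 ± 0.21, limma adjusted p = 0.00736), Mrpl23 (-0.90 ± 0.17, limma adjusted p = 0.001) and Mrpl27 (-0.55 ± 0.15, limma adjusted p = 0.0263). Without array 2 the calls of Mrpl45 (-0.47) and Mrpl23 (-0.56) held and that of Mrpl27 was lost (-0.34, limma adjusted p = 0.191). In recombined Hex against wild type and for 4-OHT in recombined cells, 0 genes of these 5 lists passed in limma; at an unadjusted p under 0.05 they were, in the order above, 5, 0, 1, 2 and 3 against wild type and 0, 2, 0, 0 and 0 for 4-OHT. Against wild type, 5 of 49 biogenesis factors and 12 of 61 mitochondrial ribosomal proteins were above wild type (medians -0.16 and -0.17, against 0.05 over all probe sets), and without array 2, 2 biogenesis factors and 2 growth control genes fell, where 1.37% of all probe sets were called. After recombination of HexERTVP2, Eif2s2 was the gene called over the 5 lists with array 2, where 0.467% of all probe sets were called. Without it, 4 of 49 biogenesis factors, 2 of 31 translation factors and TOP genes and 5 of 61 mitochondrial ribosomal proteins rose and 1 of 20 growth control genes fell, where 3.38% of all were called.

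By the pattern of 11 group means, compared over 1162 probe sets whose group means had an SD of at least 0.2, the probe sets most like Rpl39l were those of Gast (Pearson r = 0.86), Gm15987 (0.85), Gadd45g (0.82), Prm2 (0.80) and Hes6 (0.80). Without array 2 these were 0.49, 0.86, 0.85, 0.43 and 0.80, so the likeness of Gast and Prm2 rests on that array. Hes6, a bHLH factor, fell after recombination of Hex (-0.62 ± 0.18, limma adjusted p = 0.0471) and was above wild type before it (0.77 ± 0.18, limma adjusted p = 0.00838). Chosen after the values were seen, Dppa3, an ES and germ cell gene that also stands in the ES marker list, had the opposite pattern (r = -0.92, and -0.94 without array 2), with group means from 6.32 in unrecombined Hex to 8.49 in wild-type cells. The summed level of the 13 ES markers ran from 14.28 to 14.35 in wild-type arrays. It ran from 13.16 to 14.42 in unrecombined Hex and from 13.86 to 14.38 in recombined Hex arrays. For the 10 male germ cell markers the sums ran, in the same order, from 9.14 to 9.22, 9.15 to 10.21 and 9.19 to 9.46. For both sets of markers the range in unrecombined Hex includes the outlying array 2, and ranges without it were not computed. The means of these 10 genes ran from 3.11 (Sycp3) to 7.70 (Tnp1), with a median of 4.73. The part of either set of markers in the Rpl39l result was not tested. Of the 8 genes nearest Rpl39l in the RefSeq order that had a probe set with a single symbol, among them Grin2a, Emp2 and Usp7, none passed after recombination of Hex or of HexERTVP2.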

How the data were processed

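The deposited table held 1 intensity per probe set and array. Per the submitters' processing notes the authors used RMA, whose version and whose set of jointly normalised arrays are not given in the sources used here; the deposited intensity values are linear and were converted to log2. Arrays give no depth, so their number limits the precision. Of 12488 probe sets 66 controls were left out and 12422 tested without a filter. The platform annotation gave 10833 of all probe sets a single symbol, 396 several and 1193 none; Entrez IDs of 10817 matched RefSeq (GRCm38.p6), used for names and promoters.

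One mean per group was fitted with limma 3.58.1 in R 4.3.3 (lmFit and eBayes, 40 arrays, 29 residual degrees of freedom), two-sided, with Benjamini-Hochberg adjustment over all probe sets of a comparison at a threshold of 0.05. The fit was also run on simulated data with independent normal values. Those data held no outlying array and no correlation between probe sets, so the fit was not checked against either. HexERTVP2 comparisons average the clones with equal weight. In lists a gene is represented by its brightest probe set. The genes named are Rpl39l, Rpl39, the paralogues, up to 4 passing genes of the family in each direction (or up to 2 by size), up to 3 passing genes of each list (or up to 2 as values), the extremes of level and spread, and the 5 patterns most like Rpl39l; the text prints a selection and says where a gene was chosen after its values were seen. The genes of the family, the lists and the tests were chosen with earlier results of these data known. Comparisons within clones, those with 4-OHT between states, recombined HexERTVP2 against wild type, and the bright and dim split were added after the values were seen. Figures used matplotlib 3.10.9 in Python 3.11.15.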

Additional observations from a re-analysis of the deposited data

Results flagged for a closer look

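Among 7 probe sets, those of Rpl39l, Rpl39, the other paralogues and the bright Rpl19 set, tested in 42 groupings of 4 or 5 arrays, 7 values lay farther from the rest of their group than Dixon's 95% limit; chance flags about 1 group in 20.

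The second unrecombined Hex array gave 4 of them. Rpl19 read 10.8 there against 12.9 on the nearest array, Rpl7l1 6.74 against 8.11, the bright Rps4l probe set 9.12 against 11.31, and the dim Rps4l probe set, on the other side, 6.54 against 5.57. Rpl39l was not among them: its 7.71 on that array was lowest of the 4 without passing the limit.

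Recombined Hex array 3 read 5.87 for Rpl39, above the nearest value of 5.62. In unrecombined clone 1 without 4-OHT, array 4 read 6.26 for Rps27l, below the nearest value of 6.75. Wild-type array 4 read 7.96 for Rpl7l1, below 8.04.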

How the results depend on the processing

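Rpl39l kept its call after recombination of Hex, in unrecombined Hex and unrecombined HexERTVP2 against wild type, and after recombination of HexERTVP2 under every alternative run, except that fitting only the Hex arrays gave -0.78 with limma adjusted p = 0.229 after recombination of Hex. The difference between clones, 0.24, missed a threshold of 0.01 (limma adjusted p = 0.0217).

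The numbers of ribosomal protein probe sets called moved as follows. After recombination of Hex they were 2 with quantile normalisation, 2 with array weights, 0 with only the comparison's arrays, and 5 with a β-actin covariate and no array 2 of unrecombined Hex. For unrecombined Hex against wild type the count was 1 with centring, with a trended robust variance, with only the comparison's arrays, at a threshold of 0.01 and with the β-actin covariate. For unrecombined HexERTVP2 against wild type it was 2 with quantile normalisation, 5 with array weights, 2 with the β-actin covariate and 10 with that covariate and no array 2. The last setting gave 2 for recombined Hex against wild type, 2 after recombination of HexERTVP2 and 2 between clones, where array weights also gave 2 and a threshold of 0.01 gave 0. The causes were not tested.

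After recombination of Hex, Rpl39 turned to -0.036 with centring. The dim Rps4l probe set turned to 0.058 with array weights and 0.11 with the covariate and no array 2. The bright one turned to -0.076 with array weights, to -0.11 with the covariate, and to -0.38 with the covariate and no array 2.

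Leaving out 1 array at a time gave counts of 1 to 2 after recombination of Hex, 1 to 4 for unrecombined Hex and 1 to 4 for unrecombined HexERTVP2 against wild type, and 0 to 1 between clones. Rpl39l ranged from 0.21 to 0.26 between clones and from -0.060 to 0.0024 for 4-OHT in unrecombined cells. Rpl39l minus Rpl39 ranged from -0.98 to -0.62, from 0.62 to 0.88 and, for recombined Hex against wild type, from -0.20 to 0.083. After recombination of Hex, Rpl39 ranged from -0.052 to 0.13, Rpl7l1 from -0.44 to 0.052, and the Rps4l probe sets from -0.25 to 0.10 and from -0.29 to 0.55.

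Over all probe sets, calls after recombination of Hex went from 419 to 778 without array 2. Same-numbered arrays of different groups had a median r of 0.12 in their deviations (-0.70 to 0.85, 88 of 173 pairs over 0.1), against -0.067 for arrays of different number (220 of 552 pairs over 0.1), and 17 of 40 arrays correlated best with their own number, a hint from the data that some numbers go together. In the Hex groups 1 of 4 pairs was over 0.1, so the numbers were not taken to pair the arrays. A replicate block left the counts of ribosomal protein calls within 1.5 times; the fall of Rpl39l after recombination of Hex stayed called, and its fall in clone 1 without 4-OHT was -0.44 with limma adjusted p = 0.0533. That result in clone 1 also lost its call without any of 5 of the 10 arrays left out in turn (-0.51 to -0.39, limma adjusted p up to 0.13).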

Other observations

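In the 4 arrays that entered no comparison, whose titles name HexERTVP2 cells with contradictory clone or treatment, Rpl39l read 7.45, 7.74, 7.51 and 7.43, Rpl39 read 5.59, 5.54, 5.66 and 5.61, and the median of the bright ribosomal protein probe sets was 12.4, 12.9, 12.7 and 12.9.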
